A study of Mus musculus with 6 samples.

Results

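Axon guidance ligands and receptors were taken as every gene whose symbol names a semaphorin (Sema), plexin (Plxn), neuropilin (Nrp), ephrin (Efn), Eph receptor (Eph), Slit, Robo, netrin (Ntn) or Unc5 receptor. The group was chosen with earlier results of these data known, but the rule used names alone and no measured value. It found 66 of the 14865 genes in the table, of which 35 code for ligands and 31 for receptors. There were 20 semaphorins, 9 plexins, 2 neuropilins, 8 ephrins, 13 Eph receptors, 3 Slits, 3 Robos, 4 netrins and 4 Unc5 receptors. The GENCODE M21 annotation of the mouse genome holds 68 protein-coding genes with such symbols, and *Epha6* and *Robo3* were not among the listed genes. All 66 reached the minimum of 40 normalized reads in at least 1 library and were tested, although *Epha10* and *Slit1* reached it only through *Gfi1*+/+ replicate 1.

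Cochlear ducts of mice at postnatal day 8 (P8) were compared between 2 genotypes, with 3 RNA-seq libraries each, on a C57BL/6 strain. In *Gfi1cre*/+ mice the coding sequence of Cre recombinase has replaced 1 copy of Gfi1, which codes for a repressor of transcription made by hair cells (HCs) and by blood cells, and the other copy is intact. *Gfi1*+/+ mice carry 2 intact copies and neither group received a treatment according to the labels. Each *Gfi1*+/+ library held both cochleae of 1 mouse, and each *Gfi1cre*/+ library pooled 6 cochleae of 3 mice, so that pooling cannot be told apart from genotype where the spread between libraries is compared. The founders of the line were of mixed origin (129S6 and C57BL/6J), and its Cre also acts in resident macrophages of the inner ear.

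Whole-library values set the frame for the guidance genes. Libraries held between 13603908 and 19359753 reads assigned to genes. *Gfi1* itself had 147, 160 and 152 normalized reads in *Gfi1*+/+ and 136, 130 and 139 in *Gfi1cre*/+, a log2 fold change of -0.18 ± 0.10 (SE), and reads on the part of the gene that both alleles share cannot separate them. On the first principal component, which held 54.3% of the variance, *Gfi1*+/+ replicate 1 lay at -44.0 and the other libraries between -0.304 and 16.2. Summed levels of 4 Y-linked genes were at most 2.10 normalized reads in *Gfi1*+/+ and at least 794 in *Gfi1cre*/+, so that sex cannot be told apart from genotype. Markers of HCs (14 of 15 listed), supporting cells (13 of 14), the stria vascularis (10 of 10) and neurons (20 of 20) were above 3 reads in every library.

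Guidance molecules steer growing axons, and also migrating cells and vessel sprouts, by attraction or repulsion. Semaphorins bind plexins, and the secreted semaphorins of class 3 generally need a neuropilin as co-receptor. Ephrins are tethered to the membrane and bind Eph receptor tyrosine kinases on neighbouring cells, Slits repel through Robo receptors, and netrins attract through *Dcc* and repel when Unc5 receptors take part. In the cochlea these families help to place the peripheral axons of spiral ganglion neurons among the HCs, and several also act in vessels, bone and epithelia.

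GFI1 binds DNA around the core AATC, and for that reason the stretches before the start sites of the 3 guidance genes that passed an unadjusted p of 0.05 between genotypes are printed here. Each holds the 250 bases that precede the start of the gene in RefSeq on the mouse build GRCm38.p6, in the direction of transcription. Capitals mark AATC or its reverse complement GATT. *Epha10* lies on the plus strand and its stretch is chr4:124881535-124881784, which falls inside the longer GENCODE model of the gene. *Sema3e* lies on the plus strand with chr5:14025026-14025275, and *Sema4f* on the minus strand with chr6:82939770-82940019.
Epha10: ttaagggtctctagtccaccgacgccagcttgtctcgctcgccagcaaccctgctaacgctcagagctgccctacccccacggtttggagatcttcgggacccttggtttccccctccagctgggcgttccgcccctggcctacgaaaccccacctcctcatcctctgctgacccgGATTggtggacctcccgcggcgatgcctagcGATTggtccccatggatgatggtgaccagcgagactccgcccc
Sema3e: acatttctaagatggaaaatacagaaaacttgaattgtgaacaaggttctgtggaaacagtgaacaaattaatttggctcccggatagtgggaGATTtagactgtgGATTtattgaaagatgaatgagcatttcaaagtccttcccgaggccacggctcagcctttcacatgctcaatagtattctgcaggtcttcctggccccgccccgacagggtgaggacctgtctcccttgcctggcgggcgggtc
Sema4f: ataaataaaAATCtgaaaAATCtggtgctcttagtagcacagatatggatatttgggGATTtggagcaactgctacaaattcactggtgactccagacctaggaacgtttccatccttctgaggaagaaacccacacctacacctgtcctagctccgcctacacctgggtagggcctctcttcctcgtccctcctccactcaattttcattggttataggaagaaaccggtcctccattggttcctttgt
*Epha10* and *Sema3e* each held 2 copies of GATT and none of AATC, while *Sema4f* held 2 of AATC and 1 of GATT. Of the 66 genes, 57 were matched by symbol to 73 such promoters. The core, on either strand, was in 56.2% of these and in 69.0% of the 32851 promoters of all genes. The longer word AAATCAC, which contains the core, was in 4 promoters (5.48%, against 2.75% of all promoters), and these belonged to *Efna3* with 2, *Ephb1* and *Robo2*. A match of letters does not show that GFI1 binds there.

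Levels were compared between genes as normalized reads per kilobase of the gene's exons, as mean ± SD over the 6 libraries. The guidance genes spanned a wide range, from 1003 ± 57.2 for *Plxnb2* to 3.77 ± 2.71 for *Slit1* and 2.62 ± 4.545 for *Epha10*. Their median was 93.4 against 111 for all genes tested, and 28 of 66 lay above that all-gene median. The median was 105 for ligands and 75.7 for receptors. With the length of the longest transcript in place of all exons, the order of the genes had a rank correlation of 0.971 with the first, as a description. By that length, which cannot exceed the length of all exons, 19 genes had levels over 1.5 times as high. The largest shift was of 17 ranks, for *Slit2*, whose level went from 62.2 to 159.

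**Figure D1:**
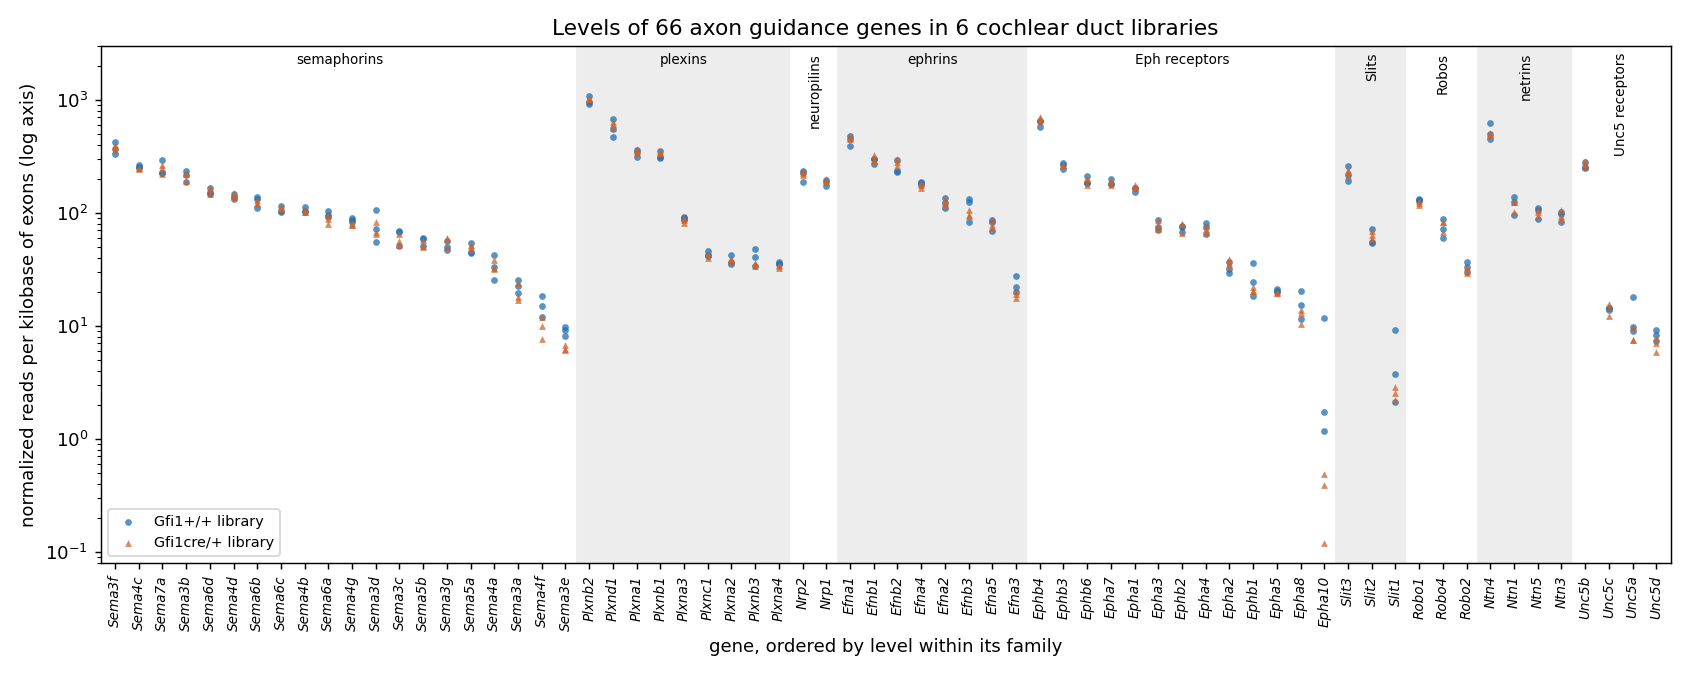
Normalized reads per kilobase of exons (log axis) for the 66 guidance genes, ordered by level within each family, with 1 point per library. *Plxnb2* stands highest at a mean of 1003, and the points of each gene lie close together except for low genes such as *Epha10* and *Slit1*, where 1 *Gfi1*+/+ library lies above the rest.

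Among the semaphorins, secreted *Sema3f* was the most abundant at 377 ± 30.5 and membrane-bound *Sema4c* the second at 251 ± 7.02. *Sema3f* signals mainly through neuropilin 2, and *Sema4c* through B-type plexins. The lowest was *Sema3e* at 7.68 ± 1.58, a secreted semaphorin that binds *Plxnd1* directly without a neuropilin. The levels within the family therefore differed widely, while *Sema3f* alone held 16.6% of the summed level of all 20.

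Receptors for semaphorins were led by plexins. *Plxnb2* held 40.03% of the summed plexin level, and *Plxnd1*, a plexin of endothelial cells and the receptor of *Sema3e*, followed at 583 ± 73.4. *Plxna4*, a partner of neuropilins in class 3 signalling, was the lowest at 34.65 ± 1.32, a level that varied little between libraries. Both neuropilins were present at similar levels, *Nrp2* at 220 ± 17.5 and *Nrp1* at 189 ± 8.72, and their ranges over libraries overlapped. By the longest transcript their order turned, with *Nrp1* at 507 and *Nrp2* at 387.

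Ephrins and Eph receptors were represented by members of both classes. *Efna1*, an A-class ephrin anchored by a lipid, was highest at 453 ± 32.9, and the B-class transmembrane ephrins *Efnb1* (296 ± 17.7) and *Efnb2* (267 ± 28.6) overlapped between libraries. *Efna3* was lowest at 21.1 ± 3.40. Of the receptors, *Ephb4*, the partner of *Efnb2* in the making of veins and arteries, stood at 651 ± 42.7 and held 36.6% of the summed Eph level, ahead of *Ephb3* at 263 ± 9.23. EphB receptors summed to 1181 ± 63.6 in *Gfi1*+/+ and 1225 ± 53.7 in *Gfi1cre*/+ (SD, n = 3), and EphA receptors to 573 ± 32.5 and 575 ± 21.2.

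In the Slit, Robo, netrin and Unc5 families, 1 member held most of the summed level. *Slit3* stood at 224 ± 23.5 and *Slit2* at 62.2 ± 7.34, far above *Slit1*, which is the Slit best known from the nervous system. *Robo1* was highest among its receptors at 126 ± 5.24, followed by the endothelial *Robo4* at 75.7 ± 10.99 and by *Robo2* at 32.1 ± 2.74. *Ntn4*, a netrin of basement membranes, held 62.0% of the netrin sum at 512 ± 57.6, ahead of the classical guidance cue *Ntn1* at 118 ± 15.8 and of *Ntn3*, the lowest, at 94.6 ± 8.31. *Unc5b*, the Unc5 receptor of vessels, held 89.3% of its family's sum at 266 ± 16.9, while *Unc5c* stood at 14.2 ± 1.07 and *Unc5d*, the lowest, at 7.60 ± 1.10. In bulk tissue, a gene at a low level cannot be told apart from one strongly expressed in few cells.

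The comparison of genotypes asked whether loss of 1 *Gfi1* copy with gain of Cre shifted these genes at P8, by limma on log2(normalized reads + 1) with Benjamini-Hochberg adjustment over all 14455 genes tested. No guidance gene was called at an adjusted p under 0.05, and every one had an adjusted p of 0.999. Over all genes 4 were called (0.0277%), and leaving out *Gfi1*+/+ replicate 1 also gave no guidance gene against 0.0277% of all genes. At an unadjusted p under 0.05, 3 guidance genes (4.55%) were lower in *Gfi1cre*/+ against a background of 2.02%, and 0 were higher against 1.02%. The 3 were *Sema3e*, *Sema4f* and *Epha10*. Of these, *Epha10* was tested only because *Gfi1*+/+ replicate 1, in the higher group, reached the minimum. It is counted in this share and in the shares that follow. By the same count, edgeR on the recovered reads named 4 guidance genes, these 3 and *Sema4g*, all lower (6.06%, against 2.62% of all genes). DESeq2 named the same 3 (4.55%, against 2.01% of all genes).

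Directions over the whole group were mixed. Of the 66 genes, 37 had a negative and 29 a positive log2 fold change, with a median of -0.01, and 50.1% of all genes were negative. Without *Gfi1*+/+ replicate 1, 43 were negative and 23 positive, with a median of -0.04, and 50.8% of all genes were negative. The fold change was under 0.25 in size (log2) for 58 of 66 genes, against 92.3% of all genes. The 8 beyond it were *Epha10*, *Slit1*, *Sema4f*, *Unc5a*, *Sema3e*, *Epha8*, *Ephb1* and *Efna3*, each negative. These were genes of low counts: apart from *Ephb1* (means of 183 and 146), none had a genotype mean above 83.7 normalized reads. For all but *Sema3e* and *Epha8*, *Gfi1*+/+ replicate 1 was the highest library. The 95% interval lay within 2-fold either way for 62 genes and within 1.5-fold for 57, and the 4 with intervals wider than 2-fold were *Epha10*, *Slit1*, *Sema4f* and *Unc5a*. By role, 21 of 35 ligands and 16 of 31 receptors had a negative value, with medians of -0.02 and -0.00334. The values were 23 ligands and 20 receptors without *Gfi1*+/+ replicate 1, with medians of -0.06 and -0.01.

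**Figure D2:**
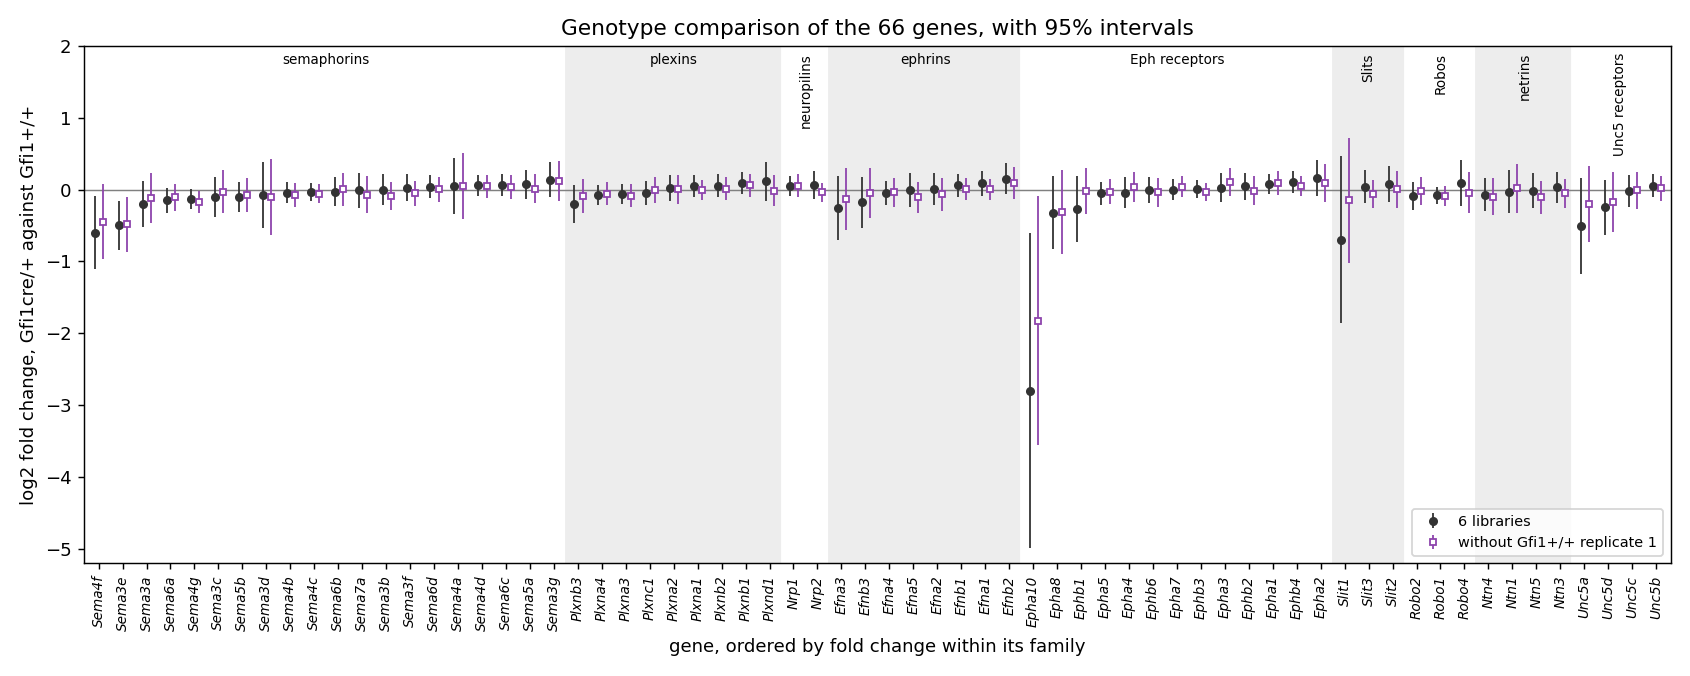
Log2 fold change of *Gfi1cre*/+ against *Gfi1*+/+ with its 95% interval from limma for each of the 66 genes, grouped by family, from 6 libraries (filled) and without *Gfi1*+/+ replicate 1 (open). Most intervals include 0, and *Epha10*, at -2.80 with 6 libraries and -1.82 without that replicate, lies far below the others.

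*Sema3e*, whose product repels *Plxnd1*-bearing axons and vessels, had 85.2, 91.1 and 74.9 normalized reads in *Gfi1*+/+ and 56.6, 57.7 and 62.3 in *Gfi1cre*/+. The groups did not overlap, and the level was 1.42 times as high in *Gfi1*+/+. Its log2 fold change was -0.50 ± 0.15 (SE, 95% interval -0.84 to -0.16, limma unadjusted p = 0.00902, adjusted p = 0.999). Without *Gfi1*+/+ replicate 1 the value was -0.48 (unadjusted p = 0.0191), nearly as large as with it. Between 65 and 87 reads per library lay behind these levels. No other annotated exon overlaps those of *Sema3e*.

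*Plxnd1*, the receptor that *Sema3e* binds, had 3403, 4007 and 4921 normalized reads in *Gfi1*+/+ and 4111, 4468 and 4629 in *Gfi1cre*/+. The *Gfi1cre*/+ values lay inside the *Gfi1*+/+ range. Its log2 fold change was 0.11 (interval -0.15 to 0.38) with all libraries and -0.01 without *Gfi1*+/+ replicate 1, the library with the lowest value, so its direction rested on that library.

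*Epha10*, an Eph receptor without kinase activity, had 85.2, 12.6 and 8.44 normalized reads in *Gfi1*+/+ and 0.87, 3.55 and 2.83 in *Gfi1cre*/+. These stand for 69, 12 and 8 reads against 1, 4 and 3. Every *Gfi1cre*/+ library lay below every *Gfi1*+/+ library, and *Gfi1*+/+ replicate 1 stood 8.11 times above the mean of the other two. The pooled reads were 13.7 times as frequent in *Gfi1*+/+ (95% exact interval 6.65 to 32.7, counting error only), and 4.38 times without that library. The interval leaves out the spread between libraries. Over most listed genes, pairs of *Gfi1*+/+ libraries differed by 18.9 to 20.7 times the variance of counting (chi-square per degree of freedom). For pairs of *Gfi1cre*/+ libraries it was 3.84 to 4.58 times. Its log2 fold change was -2.80 ± 0.97 (SE, limma unadjusted p = 0.0177, adjusted p = 0.999), and -1.82 without replicate 1. In those 5 libraries it lay below the minimum of 40 normalized reads, so no p is given for them. DESeq2 on the recovered reads called it, as the only guidance gene (adjusted p = 0.0328, log2 fold change -3.87), among 10 genes called in all (0.0692%). The edgeR test did not call it after adjustment (unadjusted p = 0.00674, log2 fold change -3.77). Without *Gfi1*+/+ replicate 1, DESeq2 called no guidance gene after adjustment. *Epha10* had reached the minimum only through that library, so its p-values with all libraries rest on the library that let it in. An antisense gene shares 1.10% of its exon bases, and the counting's strand setting is not given in the sources used here.

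*Sema4f*, a membrane-bound semaphorin of neurons and glia, had 97.5, 79.6 and 63.3 normalized reads in *Gfi1*+/+ and 53.1, 63.9 and 40.6 in *Gfi1cre*/+. The groups overlapped by 1 library. Its log2 fold change was -0.60 ± 0.22 (SE, limma unadjusted p = 0.0253, adjusted p = 0.999). Without *Gfi1*+/+ replicate 1, its highest library, the value was -0.45 with an interval of -0.97 to 0.07 and an unadjusted p of 0.0820.

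*Sema4g*, another membrane-bound semaphorin, had 713, 753 and 787 normalized reads in *Gfi1*+/+ and 670, 703 and 673 in *Gfi1cre*/+. The groups did not overlap, yet the shift was small at -0.14 ± 0.06 (log2, SE) with an unadjusted limma p of 0.0515. Without *Gfi1*+/+ replicate 1 it passed the unadjusted threshold at -0.17 (interval -0.32 to -0.03). In that comparison 3 guidance genes were lower, *Epha10*, *Sema3e* and *Sema4g* (4.55%, against 1.17% of all genes), and 0 were higher (0.927% of all genes). *Epha10* was tested there only because the library left out had reached the minimum, so *Sema3e* and *Sema4g* are the genes that the other 5 libraries would have let in. None of them passed after adjustment.

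*Plxna4* completed the genes whose groups did not overlap. It had 515, 496 and 495 normalized reads in *Gfi1*+/+ and 482, 486 and 459 in *Gfi1cre*/+, a log2 fold change of -0.08 ± 0.06 (SE). In all, 4 guidance genes (6.06%) lay lower without overlap against 4.07% of all genes, and 0 lay higher without overlap against 3.45%. *Epha10*, counted among the 4, had reached the minimum for testing only through *Gfi1*+/+ replicate 1. An exact permutation test (two-sided) of any of the 4 gave p = 0.1, which is the smallest that 3 against 3 libraries can give. Groups without overlap always give this value, and the 4 were picked for lack of overlap, so it adds no evidence. For *Sema4f*, whose groups overlapped, the exact permutation test (two-sided) gave p = 0.2.

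**Figure D3:**
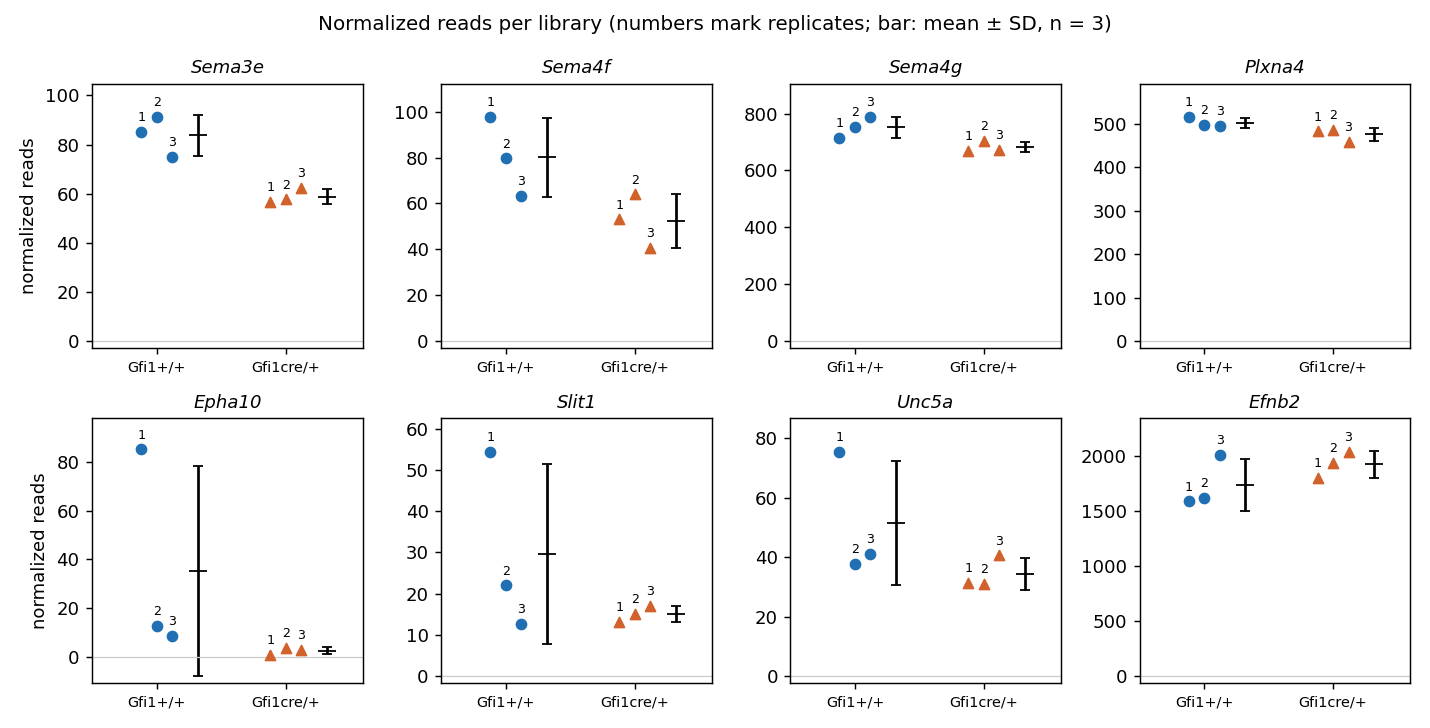
Normalized reads per library for 8 guidance genes, with the replicate number beside each point and mean ± SD (n = 3) at the right of each group. *Sema3e*, *Sema4g*, *Plxna4* and *Epha10* do not overlap between genotypes, while for *Epha10*, *Slit1* and *Unc5a* 1 *Gfi1*+/+ library stands well above the others.

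The largest positive fold changes were small. *Efnb2*, the B-class ephrin of arteries, had 1587, 1617 and 2012 normalized reads in *Gfi1*+/+ and 1797, 1937 and 2036 in *Gfi1cre*/+. These groups overlapped, with a log2 fold change of 0.15 ± 0.09 (SE). *Epha2*, a receptor of epithelia, had 138, 171 and 148 against 160, 181 and 168, a log2 fold change of 0.16 (interval -0.09 to 0.41). *Sema3g*, a secreted semaphorin of vessels, stood at 0.14 (interval -0.10 to 0.38) and *Ephb4* at 0.10 (interval -0.05 to 0.25). None of these 4 passed an unadjusted p of 0.05 with all libraries.

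Since sex differed between the groups, the 3 of the 66 genes that lie on the X chromosome are given apart. Their log2 fold changes were 0.06 for *Efnb1*, -0.06 for *Plxna3* and -0.21 for *Plxnb3*, and the groups of each overlapped.

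Much of the variation among these genes lay within *Gfi1*+/+. The median SD of log2 levels was 0.149 in *Gfi1*+/+ and 0.0883 in *Gfi1cre*/+, against 0.119 and 0.0737 over all genes, and 53 of 66 genes had the larger SD in *Gfi1*+/+ (all genes 71.2%). *Gfi1*+/+ replicate 1 was the highest of 6 libraries for 19 guidance genes (28.8%, against 24.9% of all genes) and the lowest for 22 (33.3%, against 23.5%). The 19 included 6 genes of the ephrin and Eph A class (*Epha3*, *Epha4*, *Epha5*, *Epha7*, *Epha10* and *Efna3*) and *Robo2*, *Slit1*, *Unc5a*, *Unc5d*, *Plxna4* and *Sema3a*. The 22 held A-class genes too (*Epha2*, *Efna1*, *Efna2* and *Efna5*), and included *Plxnd1*, *Nrp2*, *Robo4*, *Efnb2*, *Ephb4*, *Unc5b*, *Ntn3*, *Sema3b*, *Slit2* and *Slit3*.

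**Figure D4:**
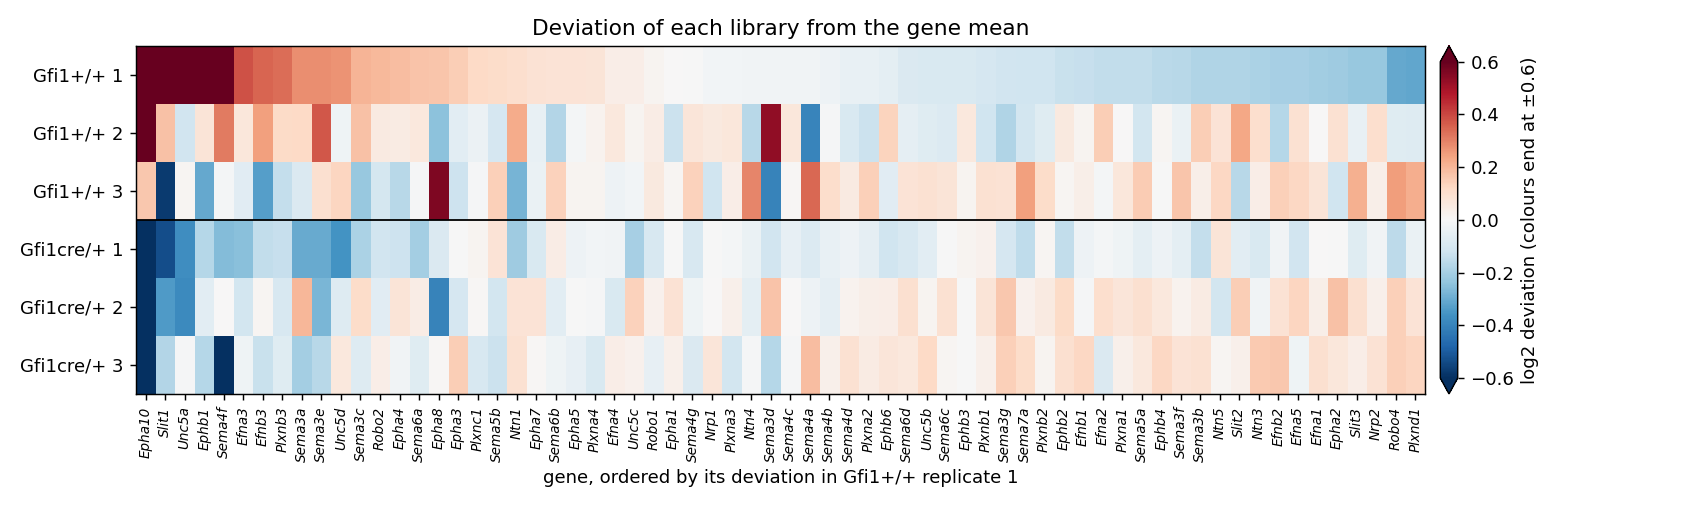
Log2 deviation of each library from the mean of the 6 libraries for each guidance gene, with genes ordered by their deviation in *Gfi1*+/+ replicate 1 and colours ending at ±0.6. In the row of *Gfi1*+/+ replicate 1 the deviation runs from *Epha10* at its high end to *Plxnd1* at its low end, while the *Gfi1cre*/+ rows are pale for most genes.

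*Slit1* showed this pattern most plainly after *Epha10*. It had 54.3, 22.0 and 12.7 normalized reads in *Gfi1*+/+ and 13.1, 15.1 and 17.0 in *Gfi1cre*/+. Replicate 1 lay 3.13 times above the mean of the other *Gfi1*+/+ libraries, and the groups overlapped. The log2 fold change was -0.70 (interval -1.86 to 0.47) and -0.15 without that library. *Unc5a*, a netrin receptor of neurons, had 75.3, 37.7 and 41.1 against 31.3, 31.1 and 40.6 normalized reads. Its value of -0.51 (interval -1.17 to 0.15) became -0.20 (interval -0.74 to 0.33) without replicate 1. *Ephb1* moved from -0.27 to -0.02.

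Summed neuron markers followed the same libraries. The 20 markers together had 23245, 16573 and 11349 normalized reads in *Gfi1*+/+ and between 12609 and 13156 in *Gfi1cre*/+, and 17 of the 20 were highest in *Gfi1*+/+ replicate 1. The neurofilament gene *Nefl* had 1631, 351 and 181 in *Gfi1*+/+ and 129 to 252 in *Gfi1cre*/+. Within the glia list, whose sum ran from 43632 to 68507 in *Gfi1*+/+ and from 48888 to 58087 in *Gfi1cre*/+, the myelin gene *Mbp* stood at 18871 in replicate 1 against 3524 and 3400 in the other *Gfi1*+/+ libraries. The part of neuron and glia content in the values of *Epha10*, *Slit1*, *Unc5a*, *Ephb1* and *Sema4f* was not tested, and fewer cells of a type cannot be told apart from less RNA per cell. Markers of endothelium summed to between 12595 and 14867 in *Gfi1*+/+ and between 13125 and 14789 in *Gfi1cre*/+, with the lowest sum in *Gfi1*+/+ replicate 1. Among guidance genes known from vessels, *Plxnd1*, *Robo4*, *Ephb4*, *Efnb2* and *Unc5b* were lowest in that library, while *Sema3g* and *Nrp1* were not. These vessel genes were not a list set beforehand, and 33.3% of all guidance genes were lowest there. The endothelial sum of *Gfi1*+/+ replicate 2 was close to it at 12876, and a link was not tested.

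*Gfi1*+/+ replicate 3 had the lowest marker sums of all libraries for neurons and supporting cells, and the highest for bone and cartilage, endothelium and HCs. A link of these sums to the counts that follow was not tested. Leaving out that library raised the number of guidance genes with an unadjusted p under 0.05 from 3 to 15. Of these, 10 were lower in *Gfi1cre*/+ (15.2%, against 8.70% of all genes), namely *Efnb3*, *Epha10*, *Ephb1*, *Plxnb3*, *Robo2*, *Sema3c*, *Sema3e*, *Sema4f*, *Sema6a* and *Slit1*. The other 5 were higher (7.58%, against 7.49%), namely *Efnb2*, *Plxnb1*, *Plxnb2*, *Plxnd1* and *Sema5a*. None of the 15 passed after limma's adjustment over all genes. *Epha10* and *Slit1*, counted among the 10 lower genes, had reached the minimum for testing only through *Gfi1*+/+ replicate 1.

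Partner genes of the same pathways were examined from a list of 76 names, which gave 76 tested entries. *Ngef* was not among the listed genes, while *Mical3* had more than 1 entry. Of 23 co-receptors and other guidance ligands, 1 had an unadjusted p under 0.05, and of 53 entries for intracellular effectors, 3 did. Each was lower in *Gfi1cre*/+, which made 4 of 76 entries lower, against 2.02% of all genes, and 0 higher, against 1.02%. None passed after limma's adjustment (adjusted p = 0.999 for each of the 4). The median log2 fold change was -0.01 for both lists. The netrin receptor *Dcc* had 44.4, 38.7 and 28.5 normalized reads in *Gfi1*+/+ and 33.1, 32.8 and 41.5 in *Gfi1cre*/+ (-0.04), far below its paralogue *Neo1*, which had 3936 to 4258 and 4023 to 4288 (0.01). The groups overlapped for both genes.

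The 4 partner genes that passed the unadjusted threshold are best known from neurons. *Cntn2*, an adhesion molecule of axons, had 167, 82.7 and 63.3 normalized reads in *Gfi1*+/+ and 56.6, 49.7 and 54.7 in *Gfi1cre*/+, a log2 fold change of -0.82. *Crmp1*, which carries semaphorin signals to the cytoskeleton, had 351, 160 and 83.3 against 66.2, 91.4 and 87.8 (-1.04). Its relatives *Dpysl2* (-0.24) and *Dpysl5* (-0.54) likewise had their highest value in *Gfi1*+/+ replicate 1. Without that library only *Cntn2* still passed, at -0.43, with an unadjusted limma p of 0.0498. That was 1 of 76 entries lower, against 1.17% of all genes. *Crmp1* then stood at -0.51 and no longer passed.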

How the data were processed

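RNA-seq was done on cochlear ducts at P8 in 3 libraries per genotype. After TruSeq preparation and paired-end sequencing, the authors used Tophat and the mm10 genome, dropped reads that mapped to more than 1 place, counted the rest with HTSeq-count and listed genes with at least 40 reads. Versions, annotation and strand setting are not given in the sources used here. The deposited signal is described by the authors as quantile-normalized, but every value (100%) equalled a whole number of reads over 1 scaling constant per library, from which the reads were recovered. Depth was 13603908 to 19359753 reads per library, and 3 reads correspond to 2.61 to 3.70 normalized reads.

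Genes with at least 40 normalized reads in 1 library (14455 of 14865) were tested with limma 3.58.1 in R 4.3.3 (two-sided, variance prior with a trend) on log2(value + 1), which understates changes of low genes. The scripts were tested on simulated data. The members and the lists of partners and markers were chosen with earlier results of these data known. Genes described with values were, per family, the 2 highest and the lowest by level, those with an unadjusted p under 0.05 in either comparison, the 5 largest changes each way, those without overlap, and partners past that threshold with *Dcc* and *Neo1*. A few others were added after their values were seen (*Epha8*, *Ephb1* and the X-linked genes among them). Lengths were exon unions of GENCODE M21, with *Ntn3* matched by symbol and 65 genes by ID. Promoters came from RefSeq on GRCm38.p6. As alternatives, edgeR 4.0.16 and DESeq2 1.42.0 were run on the recovered reads, with other pseudocounts, minimums, scalings, a replicate block and each library left out. Genotype was read from the labels, and no sample was left out of the main comparison. Overlapping exons on the other strand affect *Ntn5* most (23.4% of its exon bases).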

Additional observations from a re-analysis of the deposited data

How the results depend on the processing

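Under 17 alternatives, 288 of 297 comparisons for single named genes kept their direction and their side of the adjusted threshold, a weak criterion where adjusted p-values are 0.999. Their side of an unadjusted p of 0.05 changed in 28. No guidance gene was called after adjustment except under DESeq2 with all libraries, which called 1 (*Epha10*). The guidance genes with an unadjusted p under 0.05 numbered 3 of 66, against 439 of 14455 genes. With a minimum mean of 200 normalized reads, *Sema4g* alone passed of the 55 tested, against 229 of 10365 genes. With 1 library left out, 2 to 15 guidance genes passed. There were 15 without *Gfi1*+/+ replicate 3 and 5 without *Gfi1cre*/+ replicate 2, while the count over all genes went from 439 to 2340 and 216. Without *Gfi1*+/+ replicate 1, 3 guidance genes passed (all genes 303), but 1 with the minimum mean of 200 (*Sema4g*, all genes 172) and 1 under DESeq2 (*Epha10*, all genes 132). *Epha10*, also among the 3, lay below the minimum of 40 normalized reads in those 5 libraries. It was tested there only through the library left out. Partner genes called numbered 0, and 0 to 1 with a library left out (*Dpysl5*, without *Gfi1*+/+ replicate 3). Partner genes with an unadjusted p under 0.05 numbered 4 of 76, but 2 with the higher minimum and 1 without a trend (all genes 439, 229 and 516). With a library left out they numbered 0 to 14. The counts were 1, 2 and 14 without *Gfi1*+/+ replicates 1, 2 and 3 (all genes 303, 547 and 2340). They were 1, 2 and 0 without *Gfi1cre*/+ replicates 1, 2 and 3 (all genes 313, 216 and 248). *Plxnd1* reversed to -0.0141 without *Gfi1*+/+ replicate 1 (range -0.0141 to 0.252 with a library left out), *Dcc* reversed to 0.0260 after quantile normalization and ranged from -0.215 to 0.0966 with a library left out, and *Neo1* ranged likewise from -0.0265 to 0.0320. The cause was not tested. The fitted fold change of *Epha10* moved from -3.27 with a pseudocount of 0.1 to -0.69 with 40, where its unadjusted p was 0.0609.

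Replicate numbers did not pair the libraries, since deviations of same-numbered libraries correlated at -0.094, 0.107 and -0.033, and not every library correlated best with its own number. With a replicate block, 3 of 66 guidance genes and 5 of 76 partner entries had an unadjusted p under 0.05, against 462 of 14455 genes. Without *Gfi1*+/+ replicate 1 the block left 0 guidance genes, against 261 of 14455 genes. With 1 to 69 reads per library, *Epha10* is the gene whose values depth limits most.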
